A study of Caenorhabditis elegans with 6 samples.

Results

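NHR-25 occupied 919 sites on chromosome IV of Caenorhabditis elegans, out of 6029 sites mapped in the whole genome of L2 larvae. The sites are all peaks that the authors' combined list places on chromosome IV, with positions on the WormBase release WS220. They are not all distinct: 4 repeat an interval already listed, and joining overlapping peaks leaves 880 regions. By midpoint they were divided into a left arm (below 3.90 Mb, 189 sites), a centre (3.90 to 12.97 Mb, 581 sites) and a right arm (above 12.97 Mb, 149 sites). Each site was followed in the peak lists of 3 replicates, where a site counted as found when a replicate peak overlapped it by at least 1 bp.

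The data come from chromatin immunoprecipitation followed by sequencing (ChIP-seq), which recovers the DNA fragments bound by a chosen protein. Every sample was of hermaphrodite worms of strain OP33, fed HB101 bacteria at 20 °C and fixed in 2% formaldehyde. The strain is an unc119(ed3) mutant with the transgene wgIs33, in which nhr-25 is joined to TY1, EGFP and FLAG tags and an unc119 copy serves as marker. The tagged NHR-25 protein is thus made from a transgene brought in by bombardment, in a strain the labels give as not outcrossed, and antibodies against GFP pulled it down from whole larvae of mixed tissues. By title there are 3 ChIP and 3 input samples, the input samples were not analysed here, and no label says that replicates came from separate cultures, so the spread between them may be technical.

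NHR-25 is a nuclear receptor of the NR5 family, whose members bind DNA as single molecules, and it is the worm relative of Drosophila FTZ-F1 and mammalian SF-1. It is known for roles in the epidermis, in molting and in the fates of epidermal stem cells and the vulva. Worm autosomes are commonly divided into a gene-dense centre with little recombination and arms that recombine more, carry more repeats and hold more silenced chromatin near the nuclear envelope. Chromosome IV is also known for broad clusters of piRNA genes. No annotation or genome sequence of WS220 was used, so no gene and no base sequence is given for a site.

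The peak lists carry 2 measures that were read as strength. The authors' value estimates the false discovery rate (FDR) of a peak as a −log10, and it stops at a ceiling that 683 of the 919 sites (74.3%) shared, beside 75.4% of all combined peaks. The authors' peak number runs on within the ceiling, with 1 for the first peak, and was used as the rank. No source used here states that this number orders peaks by strength, so strong and weak refer below to the number alone. Under the ceiling the 2 measures can run opposite ways over a small range: combined number 4549 had a value of 3.48 and number 4862 one of 3.51. Farther down the list values were lower, at 2.97 for number 5085 and 2.20 for number 6019. The replicate lists hold 30000, 29241 and 30000 peaks, of which 5216, 4888 and 5233 lie on chromosome IV, and they reach down to an FDR of 0.843, 0.990 and 0.888. The first 6029 peaks of each, the size of the combined list, are called its top list. They hold 914, 903 and 946 peaks of chromosome IV in replicates 1, 2 and 3. The lists give no read counts, so sequencing depth is unknown. Width says little about the extent of binding, since 617 of the sites (67.1%) were exactly 440 bp wide and the rest ran from 110 to 1033 bp.

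The strongest site of chromosome IV lay in the centre, from 4749853 to 4750266. It was number 3 in the combined list and numbers 3, 4 and 1 in replicates 1, 2 and 3. Next came a site near the left end, from 654744 to 655119, which was number 6 in the combined list and numbers 8, 7 and 6 in the replicates. The right arm's first site, from 13240487 to 13240843, was number 14 and took numbers 36, 17 and 10. These leading sites of the centre and both arms were thus among the first 36 peaks of every replicate, in lists of about 30000.

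The following ranks were also shared out between the arms and the centre. In the left arm, the site from 2601964 to 2602377 had the combined number 50 and replicate numbers 49, 56 and 47, and the site from 2219439 to 2219864 had number 55 and replicate numbers 51, 48 and 59. Further left, the site from 1094192 to 1094537 was number 77 with 82, 99 and 105 in the replicates, and the site from 2388957 to 2389316 was number 93 with 98, 100 and 118. None of the 5 leading left-arm sites spread over more than 23 places between replicates.

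In the centre, the site from 6336639 to 6337091 was number 40 in the combined list and 32, 58 and 44 in replicates 1, 2 and 3. The site from 10935935 to 10936416 was number 54 with 73, 29 and 62, and that from 8949647 to 8950048 was number 79 with 123, 74 and 70. The widest of these leading sites, 733 bp from 11956065 to 11956797, was number 70 and took 134, 47 and 66. The centre's leading sites varied more between replicates in number than those of the left arm, with replicate 1 the weakest for 3 of these 4.

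In the right arm, a pair of sites lay close to the chromosome end. One, from 17249698 to 17250043, was number 66 with 54, 81 and 82 in the replicates, and the other, from 17278345 to 17278718, was number 84 with 84, 137 and 90. The site from 15471447 to 15471761 was number 104 with 122, 119 and 124. Replicates differed most over the site from 14594166 to 14594598, number 82 in the combined list, which was numbers 81 and 43 in replicates 1 and 2 but 265 in replicate 3. Over all 15 leading sites, replicate and combined midpoints were at most 78 bp apart. Since the combined list that chose these sites was made from the same samples, their high places in the replicates carry no independent weight.

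**Figure D1:**
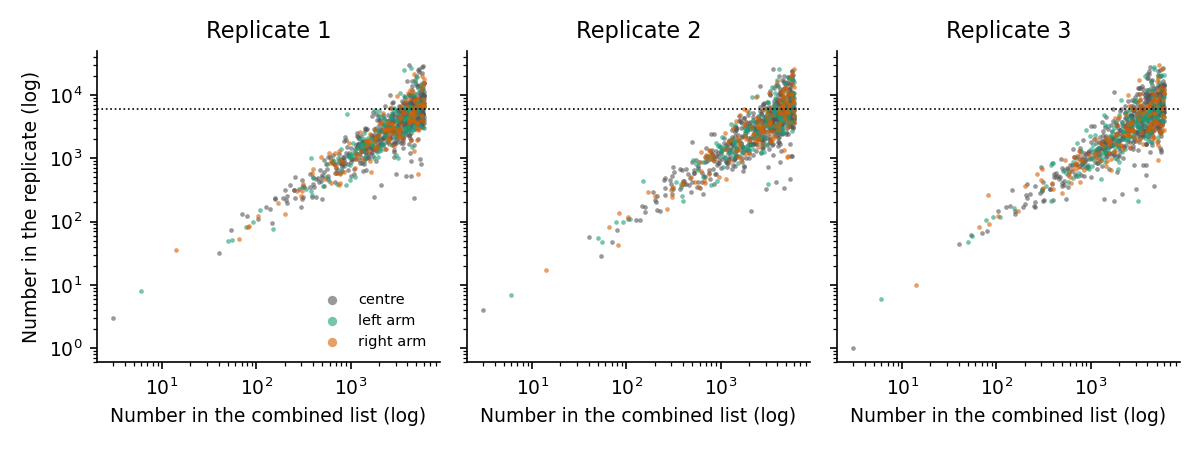
Number of each chromosome IV site in the combined list (x axis, log scale) against the number of its best overlapping peak in replicates 1, 2 and 3 (y axis, log scale), coloured by left arm, centre and right arm, with the dotted line at 6029, the end of the top list. The leading sites lie near the diagonal in all 3 panels, and the spread grows towards the end of the combined list, where many sites pass above the line.

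Sites were densest in the centre and sparsest in the right arm. The combined list had 64.1 sites per Mb in the centre, 48.5 in the left arm and 33.0 in the right arm. In the top lists the centre held 580, 571 and 580 peaks in replicates 1, 2 and 3 (63.6 ± 0.573 per Mb, SD, n = 3). The left arm held 186, 186 and 203 (49.1 ± 2.52 per Mb) and the right arm 148, 146 and 163 (33.7 ± 2.06 per Mb). The values of the 3 parts did not overlap between replicates. Centre density was 1.61, 1.60 and 1.47 times that of both arms together (mean 1.56 ± 0.0773, higher in 3 of 3 replicates; exact paired permutation p = 0.25, two-sided, the smallest that 3 pairs allow). The right arm had 0.687, 0.677 and 0.693 times the density of the left arm (mean 0.686 ± 0.00782, lower in 3 of 3; exact paired permutation p = 0.25). With a smallest possible p of 0.25, no comparison over these replicates can pass a threshold of 0.05.

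**Figure D2:**
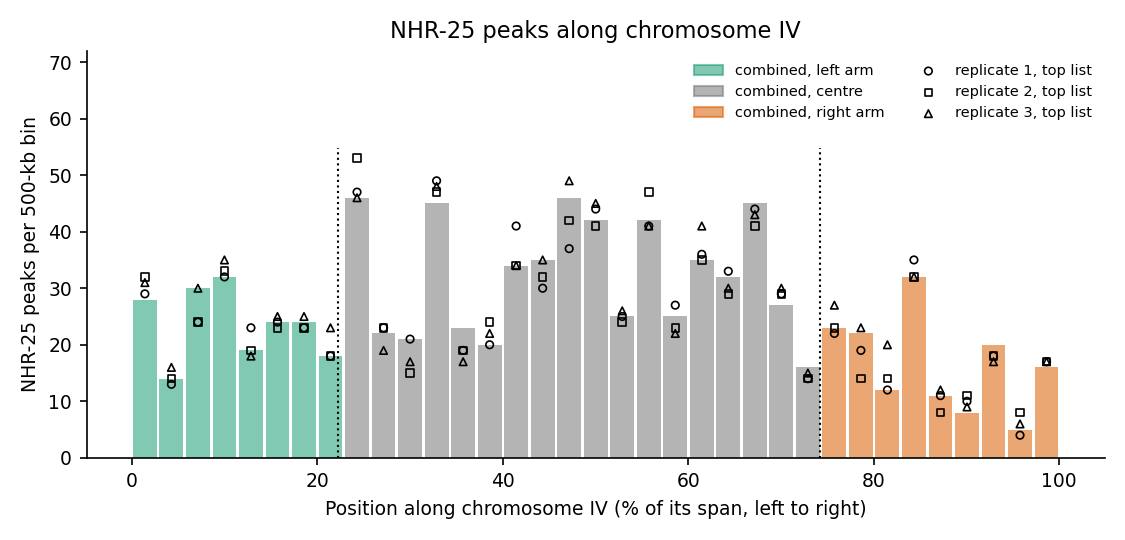
Peaks per 500-kb bin along chromosome IV, with position given as a share of its span. Bars show the combined list, coloured by the part in which the middle of the bin lies, open symbols show each replicate's top list, and dotted lines mark the limits of the arms. The bars reach 46 in the centre and drop to 5 in the right arm, and the symbols of the 3 replicates stay close to each bar.

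Within each part the density rose and fell over short distances. Of the 500-kb bins, those at 4.0 to 4.5 Mb and at 8.0 to 8.5 Mb held the most combined sites, 46 each. The bins at 5.5 to 6.0 Mb and at 11.5 to 12 Mb held 45 each. The crowded bin at 4.0 to 4.5 Mb held 47, 53 and 46 top-list peaks in the 3 replicates, whereas the next bin, at 4.5 to 5.0 Mb, held 23, 23 and 19. That sparser bin nonetheless contains the strongest site of the chromosome. The right arm had 1 crowded bin, at 14.5 to 15 Mb, with 32 sites (35, 32 and 32 in the replicates). Of these 32, 8 were among the first 1000 combined peaks, beside 148 of all 919 sites. The sparsest bins of the right arm were at 16.5 to 17.0 Mb with 5 sites (4, 8 and 6) and at 15.5 to 16.0 Mb with 8 sites (10, 11 and 9). In the left arm, bins ranged from 14 sites at 0.5 to 1.0 Mb to 32 at 1.5 to 2.0 Mb. In each replicate the 4 most crowded bins named above held at least 37 peaks each, and the 2 sparsest at most 11.

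The excess in the centre depended on how far down the lists peaks were taken. With all deposited peaks, replicates 1, 2 and 3 had 344, 313 and 340 peaks per Mb in the left arm (332 ± 16.9, SD, n = 3). The centre had 284, 283 and 280 (283 ± 1.94), and the right arm 287, 243 and 302 (277 ± 30.8). The left arm was then the densest part in every replicate, and the right arm lay above the centre in replicates 1 and 3 and below it in replicate 2. Centre density on these full lists was 0.906, 1.03 and 0.878 times that of the arms, so replicate 2 kept the direction of the top lists (mean 0.938 ± 0.0806, lower in 2 of 3; exact paired permutation p = 0.5, two-sided). Most of the peaks beyond the top lists stand at a high FDR, down to the values given above.

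**Figure D3:**
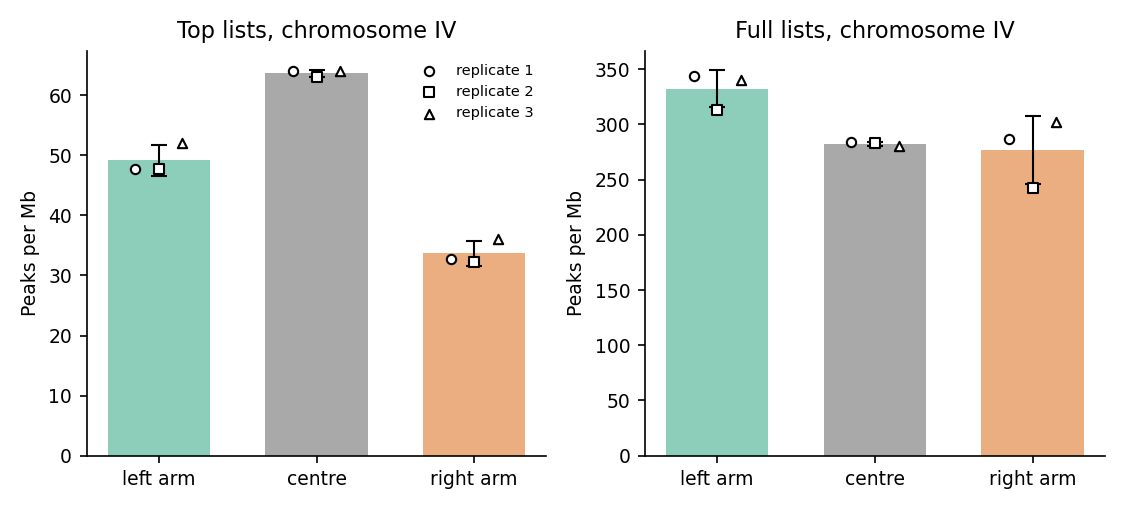
Peaks per Mb on chromosome IV in the left arm, centre and right arm, for the top lists (left panel) and for all deposited peaks (right panel). Bars are means over 3 replicates, error bars are 1 SD and symbols are the replicates; the centre stands highest in the top lists, at 63.6 per Mb, and the left arm in the full lists, at 332 per Mb.

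Along the peak numbers, the centre's share of chromosome IV peaks started low, rose and then fell away. The centre takes 51.9% of the chromosome span. Among the first 100 peaks of replicates 1, 2 and 3 there were 14, 13 and 11 on chromosome IV, of which 4, 5 and 5 lay in the centre (37.5 ± 8.48%, SD, n = 3). The combined list had 14 such sites, 5 in the left arm, 5 in the centre and 4 in the right arm. At numbers 101 to 500 the centre's share was 59.8 ± 3.07%, and from there to 6029 each class averaged between 59.8 and 67.5%. It then fell to 56.6 ± 3.70% at 6030 to 10000, 49.6 ± 1.81% at 10001 to 15000 and 43.3 ± 2.64% beyond 25000. The shares of the 3 replicates lay below the centre's span share among the first 100 peaks, above it in each class from 101 to 10000 and below it in each class beyond 10000.

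Arm sites were thus few, but a larger part of them stood among the very first peaks. Of the arm peaks in the top lists, 2.99, 2.41 and 1.64% were among the first 100 in replicates 1, 2 and 3, against 0.690, 0.876 and 0.862% of the centre peaks (difference 1.54 ± 0.764 percentage points, higher in 3 of 3; exact paired permutation p = 0.25, two-sided). For the first 1000 the difference was gone in replicate 2: 17.1, 15.4 and 16.9% of arm peaks and 15.3, 15.6 and 15.5% of centre peaks (difference 0.973 ± 1.05 points; exact paired permutation p = 0.5). The median number in the top lists was 2889, 3055 and 3140 in the arms and 3143, 3122 and 3194 in the centre, later in the centre in 3 of 3 replicates (exact paired permutation p = 0.25). These comparisons of number by part were chosen after the values had been seen, and the count of peaks behind the first 100 is small.

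**Figure D4:**
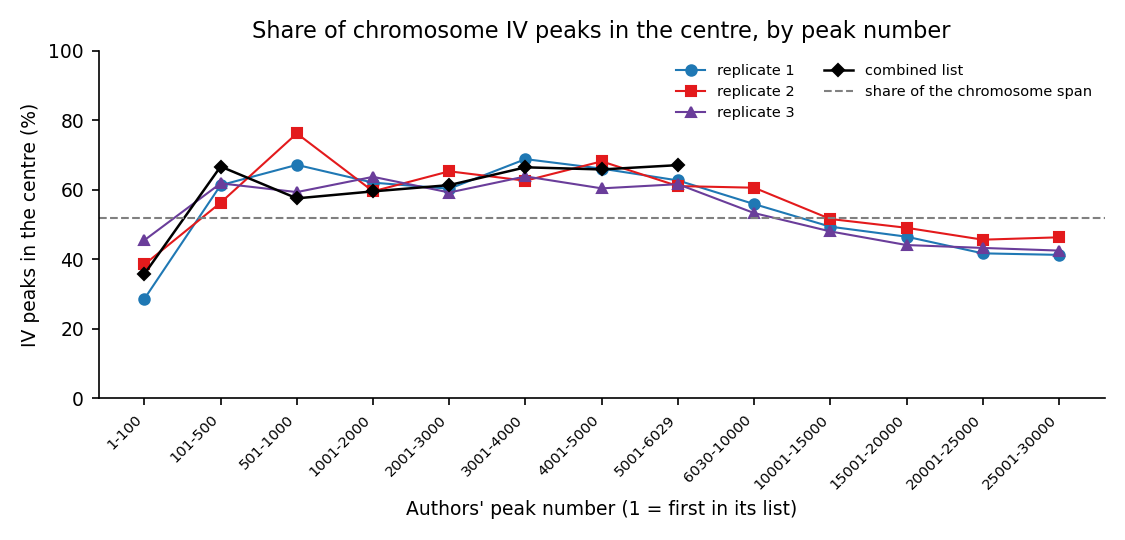
Share of chromosome IV peaks that lie in the centre (y axis, %) by class of the authors' peak number (x axis), for the 3 replicates and the combined list; the last class of replicate 2 ends at 29241. The dashed line is the centre's 51.9% share of the span, and the replicates lie below it among the first 100 peaks, above it from 101 to 10000 and below it beyond 10000.

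Replicates found most of the sites in their top lists. Of the 919 sites, 510 (55.5%, exact Clopper-Pearson 95% interval 52.2 to 58.7%) were in the top list of every replicate, beside 56.9% of all combined peaks. A further 227 sites were in the top lists of 2 replicates, 158 of only 1 and 24 of none. The 24 sites in no top list were weak in the combined list too, with numbers from 5013 to 6013. Replicate 1 held 737 of the sites in its top list (80.2%), replicate 2 held 708 (77.0%) and replicate 3 held 697 (75.8%). No share over all combined peaks is given beside these 3 values. By part, 114 of 189 left-arm sites (60.3%, 53.0 to 67.3%), 308 of 581 centre sites (53.0%, 48.9 to 57.1%) and 88 of 149 right-arm sites (59.1%, 50.7 to 67.0%) were in every top list. The 3 intervals, which cover counting error only, overlap. Requiring a reciprocal overlap of 50% lowered the share for the whole chromosome to 34.3%. A site narrower than 50% of a replicate peak cannot meet that rule, however close their midpoints. Of the chromosome IV peaks of replicates 1, 2 and 3, 97.9, 98.0 and 98.4% were exactly 430, 430 and 450 bp wide. How much of the fall comes from width was not tested.

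The share in every top list followed the place in the combined list. As the combined list was made from the same samples, the 2 are not independent, and the trend is no separate evidence of replication. All 148 chromosome IV sites among the first 1000 combined peaks were in every top list, as were 162 of the 163 numbered 1001 to 2000. The share fell to 77.4% of 137 sites at 2001 to 3000, 39.7% of 146 at 3001 to 4000, 15.2% of 158 at 4001 to 5000 and 7.19% of 167 at 5001 to 6029. Peaks of the other chromosomes gave 100% of 852 at 1 to 1000 and 97.7% of 837 at 1001 to 2000. In the last 4 classes they gave 79.7, 41.3, 15.3 and 9.16%. Each of these shares lay within the interval of the chromosome IV share. When the full replicate lists were used, 871 sites (94.8%) were found in every replicate, beside 96.0% of all combined peaks, and the other 48 were found in 2. Replicates 1, 2 and 3 missed 9, 20 and 19 of the sites. Replicate 2 missed none of the 189 left-arm sites, 19 of the 581 centre sites and 1 of the 149 right-arm sites. For single replicates no share over all combined peaks is given, so these counts only describe chromosome IV.

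A smaller group of sites was strong throughout. On chromosome IV, 98 sites (10.7%) had a peak among the first 1000 in every replicate, beside 11.9% of all combined peaks. Of these, 61 were in the centre (10.5% of its sites), 19 in the left arm (10.1%) and 18 in the right arm (12.1%), so the 3 parts had similar shares. Among the first 500 of every replicate there were 46 sites (5.01%). Among the first 100 there were 8 (0.871%), with 3 in the left arm, 3 in the centre and 2 in the right arm. For these 2 limits no share over all combined peaks is given, so the counts only describe chromosome IV. Sites among the first 2000 were mostly listed as narrower intervals than later ones. The median width was 299 bp for sites numbered 1 to 1000 and 222 bp for those numbered 1001 to 2000, and it was 440 bp in every later class. Replicate midpoints lay a median of 12, 12.5 and 17.3 bp from the combined midpoint for sites numbered 1 to 1000, and 36, 45 and 38 bp for those beyond 5000.

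The order of the sites was similar but not equal between replicates. Over sites found in both full lists, Spearman's rho of the peak number was 0.686 between replicates 1 and 2 (890 sites), 0.664 between 1 and 3 (891) and 0.670 between 2 and 3 (880). The mean of 0.673 ± 0.0117 (SD over 3 pairs that share replicates) stood beside 0.678 ± 0.00105 on the other chromosomes. With the authors' value, whose ceiling ties many peaks, the mean on chromosome IV was 0.401. In the right arm rho of the number was 0.754, 0.723 and 0.746, above the values of the left arm (0.644, 0.659 and 0.690) and of the centre (0.682, 0.647 and 0.641) in each pair. These are descriptions across sites of the same 3 libraries, and neighbouring sites can share a peak: 42, 37 and 41 peaks of replicates 1, 2 and 3 were the best match of more than 1 site.

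Single sites moved far between replicates. The highest of a site's 3 numbers was a median of 2.33 times its lowest, and 92 of the 871 sites found in every replicate differed by 5 times or more. For these ratios no value over all combined peaks is given, so they only describe chromosome IV. The largest ratio, 15.2, belonged to a narrow centre site from 9677718 to 9677856, numbers 2058 and 742 in replicates 1 and 2 and 11266 in replicate 3. In the left arm, the site from 1371426 to 1371646 was number 439 in replicate 2 and 696 in replicate 3 but 4904 in replicate 1. Both were named after their values were seen. No single replicate was the low one for both.

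Regions of the centre had close neighbours somewhat more often than those of the arms. Joining overlapping peaks turned the 919 sites into 880 regions, of which 383 (43.5%) had another region's midpoint within 2000 bp, beside 42.2% of all combined regions. The share was 47.1% of 556 regions in the centre, 37.2% of 183 in the left arm and 37.6% of 141 in the right arm. In the top lists of replicates 1, 2 and 3 it was 42.0, 45.7 and 40.9% in the centre and 38.2, 34.1 and 34.0% in both arms together. The difference of 7.43 ± 3.93 percentage points had the same sign in 3 of 3 replicates (exact paired permutation p = 0.25, two-sided) and ranged from 3.80 points in replicate 1 to 11.6 in replicate 2. Among the first 3014 peaks of each replicate it was 5.30, 4.70 and -1.39 points in replicates 1, 2 and 3, so the sign turned in replicate 3 (mean 2.87 ± 3.70; exact paired permutation p = 0.5). The mean was 1.5 points at a distance of 1000 bp (0.850, 3.11 and 0.554 in replicates 1, 2 and 3). At that distance the centre was the highest of the 3 parts in replicate 2 only. In the combined list the left arm was highest, at 18.6% against 17.3% in the centre. The centre also has more regions per Mb. Isolated regions were more common in the arms: 6.52 ± 0.213% of centre regions and 14.4 ± 0.556% of arm regions had no other midpoint within 20 kb (SD, n = 3), with no overlap between the replicates' values, a comparison chosen after the values had been seen.

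**Figure D5:**
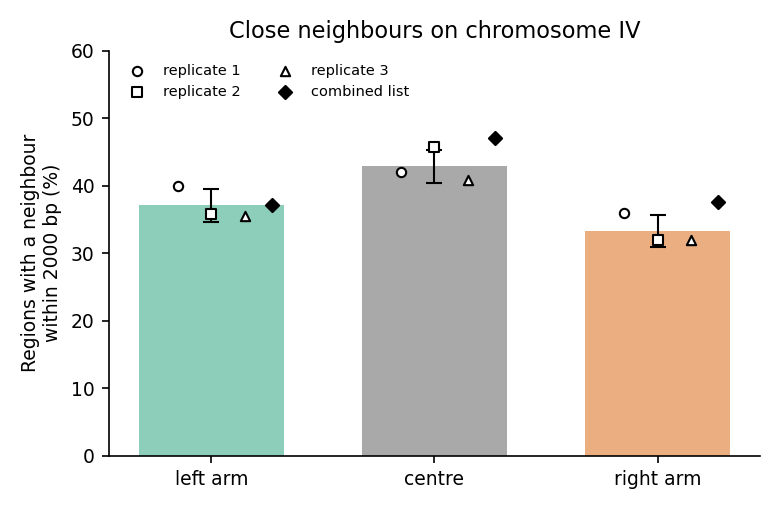
Share of chromosome IV regions that have another region's midpoint within 2000 bp, in the left arm, centre and right arm. Bars are means over the 3 replicate top lists, error bars are 1 SD, open symbols are replicates and diamonds the combined list; the centre is highest in each list, at 47.1% in the combined one.

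Chains of regions, each within 2000 bp of the next, reached 6 regions at 3 places. One in the centre, from 8525979 to 8531726, had number 203 as its best site and held 6, 5 and 6 top-list regions in replicates 1, 2 and 3. Another in the centre, from 8819689 to 8827188, held only 2, 5 and 3, so its full length rests on the combined list. In the right arm, the chain from 14609666 to 14614452 held 5, 5 and 4, and it lies in the arm's crowded bin. Chains of 4 or more numbered 19, with 15 in the centre, 3 in the left arm and 1 in the right arm. These parts hold 556, 183 and 141 of the 880 regions. The chains were counted in the combined list, and some were only partly present in the replicates. The chain of 4 from 4517170 to 4521218, for example, held 1, 3 and 2 top-list regions. The strongest site of the chromosome ends a chain of 4 regions that runs from 4745564 to 4750266, with 4, 4 and 3 regions in the replicates. Another centre site among the leading 15, number 54 from 10935935 to 10936416, likewise ends a chain of 4 (4, 4 and 3 in the replicates). At the other extreme, 497 regions stood alone by this distance.

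The densest windows of 30 kb were all in the centre. The first, from 4014527 to 4042651, held 11 regions, and 8, 12 and 10 top-list regions in the replicates. The window's best peak was number 521, and 3 of its 12 peaks were among the first 1000, beside 148 of all 919 sites. It opens the centre: the last site of the left arm, from 3875310 to 3875419, had number 1591 and numbers 1752, 1591 and 2240 in the replicates. The first site of the centre, from 4014527 to 4014966, had number 5693 and numbers 12811, 4248 and 3398, so the left limit falls in a stretch without sites. The other windows, from 4390493 to 4408553 and from 11474165 to 11504020, held 10 regions each, with 9, 9 and 8 and with 9, 10 and 8 in the replicates. At the right limit the last centre site, from 12848897 to 12849336, was number 5237 (6396, 5032 and 7304 in the replicates). The first right-arm site, from 13013230 to 13013669, was number 1625 (2447, 1722 and 958).

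The 4 longest stretches without a site all lay in the right arm. The longest, 351 kb from 15673428 to 16024035, had 0, 2 and 3 top-list peaks in replicates 1, 2 and 3 and 85, 61 and 90 peaks in their full lists. It was followed by 272 kb from 15039817 to 15311944 (1, 0 and 2 top-list peaks), 269 kb from 13413403 to 13682794 (1, 0 and 0) and 191 kb from 16191543 to 16382120 (0, 0 and 0). The fifth, 182 kb from 4881086 to 5063443 in the centre, had no top-list peak in any replicate. Of 30 gaps of at least 100 kb, 13 were in the right arm, 12 in the centre and 5 in the left arm. The median gap was 4.55 kb in the centre, 9.0 kb in the left arm and 8.11 kb in the right arm. The left arm's median gap was thus about as wide as the right arm's, but its longest was only 135 kb.

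Broad regions of at least 1000 bp were few, and both lay in the right arm. The interval from 13082708 to 13083740, 1033 bp, had number 626 and best numbers 406, 1245 and 411 in the replicates, where no overlapping peak was wider than 430 bp. That from 14033060 to 14034083, 1024 bp, is listed for 2 combined peaks, numbers 852 and 1655, and corresponded to 3, 3 and 4 separate intervals in the replicates, of at most 450 bp. Their width was thus seen in the combined list alone. Conversely, 2 sites at the ceiling in all 3 replicates were absent from the combined list, out of 299 such peaks of replicate 1 on chromosome IV (0.669%, beside 1.39% on all chromosomes). Both are in the centre, from 8743927 to 8744356 with numbers 852, 1453 and 1242, and from 10221972 to 10222401 with numbers 1446, 1465 and 1310.

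Chromosome IV had fewer peaks per Mb than the other autosomes together. Its top lists held 52.7 ± 1.28 peaks per Mb (SD, n = 3) against 59.8 ± 0.50 on I, II, III and V together, a ratio of 0.867, 0.863 and 0.913 in replicates 1, 2 and 3 (mean 0.881 ± 0.0274, lower in 3 of 3; exact paired permutation p = 0.25, two-sided). With all deposited peaks the ratio was 0.972 ± 0.0204. Chromosome V was sparser still, at 47.4 ± 0.266 per Mb. An excess in the centre was not particular to chromosome IV. The central 50% of its span held 60.9 ± 0.940% of its top-list peaks, beside 63.4, 65.3, 62.0 and 73.8% on I, II, III and V. Chromosome IV makes up 17.4% of the span of the 6 chromosomes. It gave 12.7 ± 1.53% of the first 100 peaks of the replicates, 14.6 ± 0.600% of the first 1000 and 18.0 ± 1.0% of those beyond 25000. Its share of the strong peaks was thus below its share of the span, and its share of the weakest was close to it.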

How the data were processed

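Each deposited list gives, per the file headers, positions on WormBase WS220, and its source field records peak calling by SPP followed by IDR, a procedure that scores the agreement of peaks between replicates. The deposited value per peak is a −log10 of an FDR estimate by the authors, a unit read from the values, since in the replicate lists the ceiling is set by the number of peaks at it. No source used here gives the aligner, filters, controls, IDR threshold or way of combining. If the lists were selected for agreement, agreement between replicates would be raised.

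Members and lists were chosen with earlier results of these data known. Python 3.11.15, pandas 2.3.3, NumPy 2.4.6 and SciPy 1.17.1 were used. A site took the lowest-numbered replicate peak that overlapped it by at least 1 bp. The span of a chromosome was the last base any deposited peak reached (17489459 on IV). Densities and shares were compared by exact paired permutation tests over the 3 replicates. Functions were tested on simulated lists. Named sites were the 12 lowest combined numbers and the 5 lowest in each part. Windows, gaps, broad regions and sites at the limits were named by fixed counts and sizes. Alternatives were other list sizes, limits, overlaps, distances and joined regions.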

Additional observations from a re-analysis of the deposited data

How the results depend on the processing

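Over 6 results and 48 alternatives, 37 kept their direction and their side of the threshold, or stayed within the replicate spread or the counting interval, 10 moved and 1 reversed. As no test over 3 replicates can pass 0.05, keeping the side of the threshold says nothing about stability. The density ratio of centre to arms reversed in its mean, to 0.938, with all deposited peaks, where the weak peaks enter, although replicate 2 stayed above 1 at 1.03; in the other alternatives it ranged from 1.48 to 1.60. The share of sites in every top list was 34.3% with a reciprocal overlap of 50%, 94.8% with all deposited peaks, 92.9% for the first 3014 combined peaks, and from 62.8 to 65.1% with 1 replicate left out, where fewer lists must agree. Rank agreement was 0.401 with the authors' value, which has a ceiling, and 0.658 for the first 3014 combined peaks. It was 0.551 with a reciprocal overlap of 50%, which sites narrower than 50% of a replicate peak cannot meet (the cause was not tested). With 1 replicate left out it ranged from 0.664 to 0.686. The difference in close neighbours was 2.87 percentage points for the first 3014 peaks of each replicate, with the opposite sign in replicate 3 (-1.39), 1.5 at 1000 bp and 10.0 at 5000 bp, and from 5.35 to 9.25 with 1 replicate left out. The ratio of right to left arm ranged from 0.643 to 0.833 and that of chromosome IV to the other autosomes from 0.849 to 0.972. For the 15 leading sites, 4 alternatives each were added after seeing the data; 59 of 60 kept the count of top lists that hold the site, and site number 82 dropped to 2 lists with the reciprocal overlap. No paired analysis was possible because the inputs were not analysed here, as far as pairing ChIP with input by replicate number goes; parts of the genome were compared within each replicate, as reported. Ranking is limited by the ceiling of the value and by the unknown depth.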
